A study of Sus scrofa with 12 samples.

Results

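The 50 genes described here were taken from a list of mitosis genes: the kinases and cyclins that start mitosis, the chromosomal passenger complex, the kinetochore, the spindle checkpoint, the genes that start anaphase, spindle kinesins and spindle assembly factors, cytokinesis, chromosome structure, and a pair of transcription factors. Of the 50, 46 had a row in a table of 31908 pig genes, 44 by the symbol in the table and 2 (UBE2C and BUB1B) by their identifier in the pig reference. AURKA, CCNA2, KNL1 and PTTG1 were matched to no row and are not analysed here. The table holds RNA-seq values of porcine muscle satellite cells, the stem cells of skeletal muscle, in 12 libraries. WT and CBP cells were collected at 0h, which the labels call proliferation, and at 60h, which they call differentiation, with 3 libraries in each of the 4 groups.

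The groups carry names under a genotype tag (WT_0h, WT_60h, CBP_0h, CBP_60h), and no allele is given. A treatment text that is the same on all 12 libraries names SGC-CBP30, a compound that binds the bromodomains of CBP and p300, for 48 h while cells proliferate and for 60 h while they differentiate, at a dose labelled 5 uM/ml. The CBP arm is read here as the arm that received it, but compound and genotype cannot be told apart from the labels. The treatment of the WT cells is not stated. The cell line is labelled C3H, grown in RPMI with serum, and neither the number of animals or clones behind it nor the medium used for differentiation is given. Nothing says that the 3 libraries of a group came from separate cultures or animals, so p-values measure the spread between libraries, which may be technical.

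Mitosis is run by waves of phosphorylation and protein destruction. CDK1 bound to B-type cyclins drives entry, chromosomes condense and attach through kinetochores to spindle microtubules, and the spindle checkpoint holds the cell until every kinetochore is attached. CDC20 then activates the anaphase-promoting complex, a ubiquitin ligase that marks securin and the cyclins for destruction, so that separase can part the sister chromatids before the cell divides. Most of these genes are transcribed together in G2 and M phase under FOXM1, B-MYB and the MuvB complex, and they are switched off when a muscle precursor leaves the cell cycle to fuse into fibres. In bulk RNA, fewer dividing cells and less RNA per dividing cell cannot be told apart.

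Values are FPKM (read counts corrected for gene length and sequencing depth), which can be compared between genes. Library totals recovered from them run from 16095335 to 19155240 reads, and whole reads recovered per gene make up 99.991% to 99.993% of each total. The 44 tested genes rest on 54 to 5383 reads per library. A gene was tested if it reached an FPKM of 1 in 3 or more libraries, and 43 of the 44 reached it in all 12. KIF18A passed through its 0h libraries, so its fall is in part a condition of its being tested. CDC25C, the phosphatase that activates CDK1, lay between 0.0165 and 0.136 FPKM (2 to 16 reads), and PRC1, which bundles the central spindle, between 0.0215 and 0.179 FPKM (2 to 17 reads). Neither was tested. The labelled cell type was checked on 6 satellite cell markers: all 6 were above 1 FPKM in all 12 libraries, with PAX7 at 7.39 to 14.6 and MYF5 at 86.2 to 142 FPKM. Markers of other cell types were mixed. Of 6 immune cell markers, PTPRC was listed at 0 in 10 libraries and CD163 in 7, while CD68 lay at 0.837 to 4.99 and CD14 at 0.84 to 2.52 FPKM. Of 4 fat cell markers, ADIPOQ was listed at 0 in 8 libraries and PLIN1 in 3, while LPL lay at 1.94 to 3.43 and FABP4 at 0.277 to 6.21 FPKM. Of 6 endothelial markers, TEK was listed at 0 in 3 libraries and PECAM1 was the highest, at 0.889 to 1.78 FPKM. Fibroblast and smooth muscle markers were high, for example COL1A1 at 289 to 2940 and ACTA2 at 789 to 2635 FPKM.

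Changes are given as differences of log2(FPKM + 1), which understate the change of low genes, and folds as ratios of group mean FPKM. A gene was called at a limma p-value under 0.05 after Benjamini-Hochberg adjustment over the 11636 genes tested. Across the 12 libraries, the mitosis genes were highest in CBP cells at 0h, lower in WT cells at 0h, and lowest at 60h, in CBP cells for most of them. In WT cells 43 of 44 fell from 0h to 60h, with a median change of -0.59 against -0.05 for all tested genes. In CBP cells all 44 fell, with a median of -1.54 against -0.06. Both counts include KIF18A, whose fall is in part a condition of its being tested. Of all tested genes, 38.0% fell and 28.8% rose in WT cells, and 41.5% fell and 31.3% rose in CBP cells. At 60h WT cells kept a median of 63.3% of their 0h level (45.7% to 94.9% over the 44 genes), and CBP cells 30.3% (13.1% to 57.2%).

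**Figure D1:**
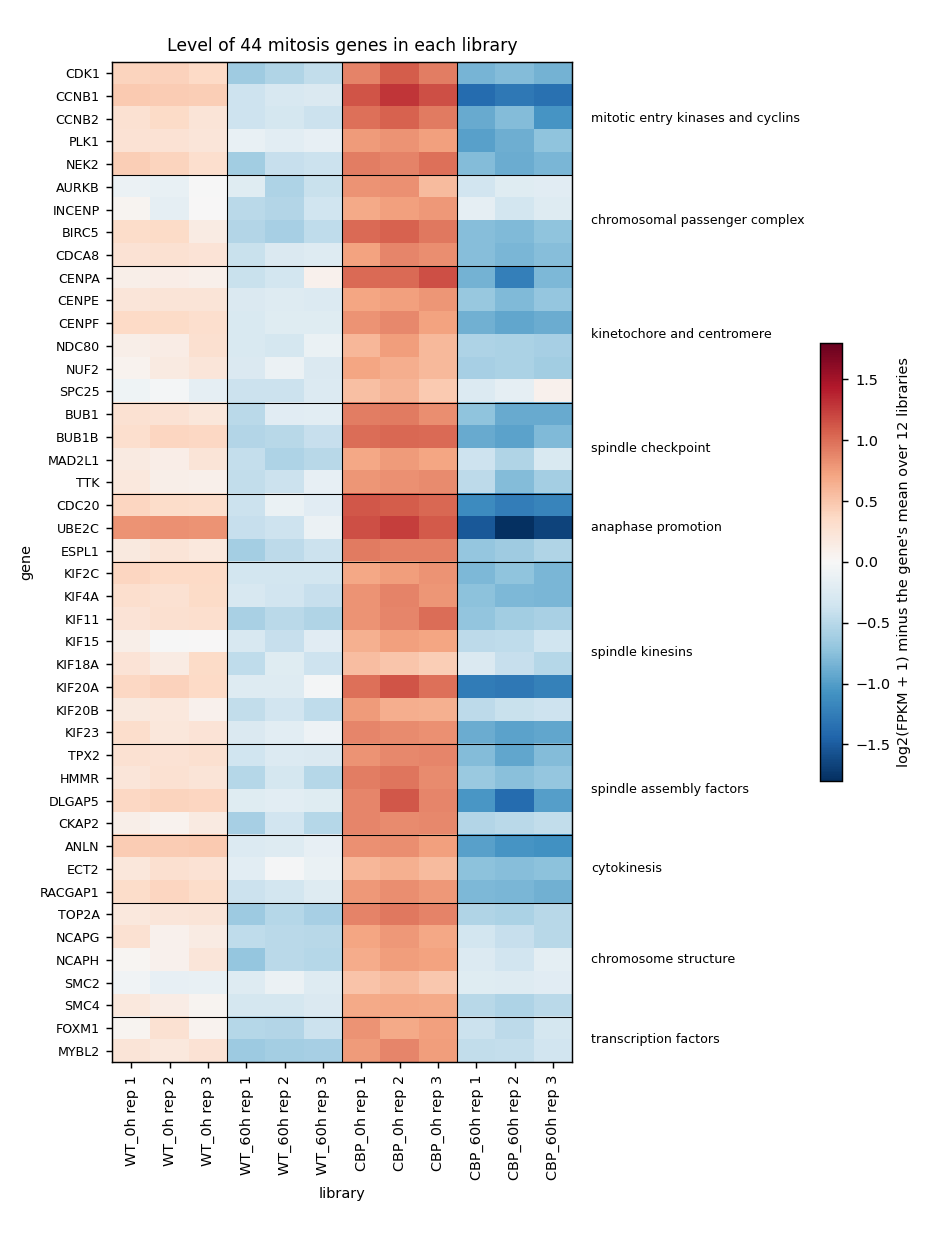
Level of the 44 tested genes in each of the 12 libraries, as log2(FPKM + 1) minus the mean of the gene over all libraries (colour), with genes in rows grouped by role and libraries in columns grouped by arm and time. For most genes the CBP libraries hold both the highest levels, at 0h, and the lowest, at 60h.

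Muscle and stromal markers also differed between the groups. MYOG, the factor that commits myoblasts to fuse, ranged from 27.9 to 602 FPKM, and the summed level of 5 muscle fibre markers was 844 to 891 FPKM in WT cells at 0h, 1669 to 1694 in WT at 60h, 136 to 144 in CBP at 0h and 1047 to 1144 in CBP at 60h. All 5 were lower in CBP than in WT cells at 0h and at 60h, as were 18.1% and 27.0% of all tested genes. The summed level of 8 fibroblast markers, all of which rose in both arms, was 2973 to 3098 FPKM in WT at 0h, 6387 to 6695 in WT at 60h, 1705 to 1733 in CBP at 0h and 4823 to 5177 in CBP at 60h. Of all tested genes 28.8% rose in WT and 31.3% in CBP cells. The 6 satellite cell markers summed to 1461 to 1501 FPKM in WT at 0h, 1185 to 1348 in WT at 60h, 656 to 696 in CBP at 0h and 819 to 902 in CBP at 60h, and the 7 smooth muscle and pericyte markers to 3693 to 3840, 3811 to 3818, 1451 to 1501 and 2643 to 2836. A sum follows its highest genes, and at 60h single markers went both ways. Of the 6 satellite cell markers 4 were higher in CBP than in WT cells and 2 lower, MYOD1 (-0.54) and DES (-1.27). Of the 8 fibroblast markers 3 were higher and 3 lower, with PDGFRA at 0.94 and COL1A1 at -0.88. Of the 7 smooth muscle and pericyte markers 1 was higher and 5 lower. Among all tested genes 44.7% were higher and 27.0% lower. The endothelial, immune and fat cell markers summed to at most 8.82 FPKM in any library. The part of these shifts in the changes of the mitosis genes was not tested.

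The kinases and cyclins of mitotic entry fell in both arms, 5 of 5 tested. CDK1 (chr14:64233945-64255290, pig build Sscrofa11.1, as are all positions here), the kinase at the centre of mitotic entry, was at 14.7, 14.9 and 14.3 FPKM in WT cells at 0h and 6.63, 7.19 and 7.74 at 60h, and at 21.1, 24.3 and 21.6 and 5.69, 5.95 and 5.58 in CBP cells. The 4 groups did not overlap, with CBP at 0h highest and CBP at 60h lowest. CDK1 fell 2.03-fold in WT cells, a change of -0.93 (SE 0.0581, limma adjusted p = 3.6e-08), and 3.89-fold in CBP cells, a change of -1.79 (SE 0.0581, limma adjusted p = 6.64e-11). PLK1 (chr3:22537814-22550901), the polo-like kinase that matures centrosomes, had the smallest WT change of the role. Its libraries read 5.38, 5.38 and 5.17 FPKM in WT at 0h, 3.82, 3.67 and 3.79 in WT at 60h, 8.01, 8.26 and 7.86 in CBP at 0h and 1.71, 1.89 and 2.21 in CBP at 60h. Again no groups overlapped, and the falls were 1.41-fold in WT (-0.41) and 4.15-fold in CBP (-1.62).

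CCNB1 (chr16:47338239-47348385), the B-type cyclin that activates CDK1, belongs to the 6 largest falls in CBP cells, a set picked out after its values were seen. It was at 37.1, 36.7 and 36.4 FPKM in WT at 0h, 20.2, 21.5 and 21.8 in WT at 60h, 59.1, 65.7 and 60.1 in CBP at 0h and 9.49, 10.2 and 9.81 in CBP at 60h. The WT cells thus kept 57.7% of their 0h level and the CBP cells 16%, and the change in CBP was -2.53 (SE 0.044, limma adjusted p = 3.25e-13). CCNB2, its close relative, kept 60.8% in WT and 22.6% in CBP, and NEK2, a kinase that parts the centrosomes, 47.5% and 21.4%.

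All 4 genes of the chromosomal passenger complex, which corrects wrong attachments of chromosomes to the spindle, fell in both arms, with a median change of -0.49 in WT and -1.29 in CBP cells. BIRC5 (chr12:3747276-3755214), which codes for survivin, fell most in WT. It was at 20.8, 21 and 18.2 FPKM in WT at 0h, 11, 10.5 and 11.6 in WT at 60h, 34.3, 35.3 and 32.5 in CBP at 0h and 9.24, 9.04 and 9.45 in CBP at 60h, with no overlap between groups. The change was -0.80 (SE 0.0544, limma adjusted p = 7.72e-08) in WT and -1.77 (SE 0.0544, limma adjusted p = 4.11e-11) in CBP. AURKB (chr12:53410833-53426165), the kinase of the complex, fell least in WT: 6.28, 6.16 and 6.79 FPKM at 0h against 5.73, 4.36 and 4.94 at 60h, and 12.7, 12.9 and 10.6 against 5.15, 5.75 and 5.81 in CBP cells. Its 60h libraries overlapped between the arms, while its 0h libraries did not.

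INCENP (chr2:9411942-9445825), the scaffold that holds the complex together, went against BIRC5 and CDCA8 at 60h, where it was higher in CBP than in WT cells. It was at 6.26, 5.28 and 6.11 FPKM in WT at 0h, 4.04, 3.89 and 4.5 in WT at 60h, 10.3, 10.8 and 11.1 in CBP at 0h and 5.31, 4.59 and 5.02 in CBP at 60h. The 3 CBP libraries at 60h lay above the 3 WT libraries, a difference of 0.22 (SE 0.068, limma adjusted p = 0.013). That call was lost under median-of-ratios scaling (0.11, limma adjusted p = 0.149) and without WT_60h replicate 2 (limma adjusted p = 0.0533) or CBP_60h replicate 1 (limma adjusted p = 0.0568). CDCA8, or borealin, which helps bring the complex to centromeres, kept 63.5% of its level in WT and 26.7% in CBP cells.

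Kinetochore and centromere genes had the smallest median change of the 10 roles in WT cells, -0.38, and a median of -1.36 in CBP cells; all 6 tested fell in both arms. CENPF (chr9:128948386-129012241), a large protein of the outer kinetochore, was at 10.6, 10.5 and 10.2 FPKM in WT at 0h, 6.47, 6.79 and 6.79 in WT at 60h, 14.9, 15.6 and 14 in CBP at 0h and 3.98, 3.76 and 3.91 in CBP at 60h. Its groups did not overlap and its falls were 1.56-fold in WT (-0.57) and 3.83-fold in CBP (-1.70). SPC25 (chr15:75339171-75371275), which ties the NDC80 complex to the inner kinetochore, was at 2.83, 2.97 and 2.64 FPKM in WT at 0h, 2.11, 2.09 and 2.43 in WT at 60h, 4.89, 5.22 and 4.64 in CBP at 0h and 2.41, 2.62 and 3.26 in CBP at 60h. In CBP cells it had the smallest fall of the 44 genes on the log2(FPKM + 1) scale, -0.66 (SE 0.0817, limma adjusted p = 1.37e-05), while by the level left SMC2 fell least, to 57.2% against 56.3% for SPC25. At 60h it was higher in CBP than in WT cells by 0.22 (SE 0.0817, limma adjusted p = 0.0273), although 1 CBP library lay within the WT range. The call at 60h was lost without WT_60h replicate 1 (limma adjusted p = 0.0782), WT_60h replicate 2 (0.0835 by the same test) or CBP_60h replicate 3 (0.127). It was also lost with no filter, only the groups compared, quantile scaling or median-of-ratios scaling, at limma adjusted p of 0.0603 to 0.167. The WT fall of -0.25 (SE 0.0817, limma adjusted p = 0.0178) was lost without WT_0h replicate 2, WT_60h replicate 1 or WT_60h replicate 2, at limma adjusted p of 0.0557 to 0.0623, and under TPM scaling (limma adjusted p = 0.0574).

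The other members of the microtubule-binding NDC80 complex, NDC80 and NUF2, kept 69.7% and 76.7% of their level in WT, and 35% and 39% in CBP cells. CENPE, a kinesin of the kinetochore, kept 68.2% and 30.3%. CENPA (chr3:112263912-112272638), the histone H3 variant that marks centromeres, showed the widest gap between the arms in this role. It was at 4.89, 4.95 and 4.84 FPKM in WT at 0h and 3.12, 3.32 and 4.78 at 60h, against 10.1, 10.1 and 11.2 and 2.04, 1.32 and 2.13 in CBP cells. WT_60h replicate 3 reached almost the WT level at 0h, and the WT fall of -0.33 (SE 0.128, limma adjusted p = 0.0382) was lost without any 1 of 5 WT libraries, at limma adjusted p of 0.071 (without WT_0h replicate 3) to 0.147 (without WT_60h replicate 1). It was also lost with a pseudocount of 0.1, no filter, median-of-ratios scaling or TPM scaling, at limma adjusted p of 0.0567 to 0.112. The CBP fall was -2.03 (SE 0.128, limma adjusted p = 2.75e-08).

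All 4 genes of the spindle checkpoint fell in both arms, with medians of -0.61 in WT and -1.59 in CBP cells. BUB1B (chr1:131093026-131143840, ENSSSCG00000004782), which codes for BUBR1, an inhibitor of the anaphase-promoting complex, was at 14.4, 15.3 and 15.1 FPKM in WT at 0h, 7.64, 7.87 and 8.35 in WT at 60h, 24.1, 24.5 and 24.3 in CBP at 0h and 5.69, 5.38 and 6.2 in CBP at 60h. Its groups stood clear of each other, and it fell 1.88-fold in WT, -0.83 (SE 0.0475, limma adjusted p = 1.69e-08), and 4.22-fold in CBP, -1.91 (SE 0.0475, limma adjusted p = 6.82e-12). TTK (chr1:86076576-86125334), the kinase MPS1 that starts the checkpoint signal, was at 6.09, 5.67 and 5.64 FPKM in WT at 0h, 3.57, 3.77 and 4.61 in WT at 60h, 9.81, 9.99 and 10.2 in CBP at 0h and 3.5, 2.64 and 3.07 in CBP at 60h. Its 60h libraries lay close together in the 2 arms without overlapping, and it fell 1.46-fold in WT (-0.45) and 3.25-fold in CBP (-1.44). BUB1, the kinase that gathers checkpoint proteins at kinetochores, kept 65.6% in WT and 24.9% in CBP cells. MAD2L1, the protein MAD2 that binds CDC20, kept 61% and 44.3%, and its 60h libraries overlapped between the arms (12 to 13.2 FPKM in WT and 12.2 to 14.8 in CBP).

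The genes that start anaphase had the largest median fall of the 10 roles in CBP cells, -2.27, with -0.69 in WT cells; all 3 tested fell in both arms. UBE2C (chr17:48018403-48021542, ENSSSCG00000007423), the ubiquitin-conjugating enzyme that works with the anaphase-promoting complex, was the most abundant of the 44 genes per length at 0h and fell most of the 44 in both arms. It was at 75.7, 77.1 and 75.7 FPKM in WT at 0h, 31.9, 32.8 and 39.7 in WT at 60h, 97, 103 and 93.5 in CBP at 0h and 14.3, 11.3 and 12.8 in CBP at 60h. All 4 groups stood apart. UBE2C fell 2.19-fold in WT, -1.11 (SE 0.0841, limma adjusted p = 2.02e-07), and 7.63-fold in CBP, -2.84 (SE 0.0841, limma adjusted p = 2.95e-11). At 60h it was 2.72-fold lower in CBP than in WT cells.

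CDC20 (chr6:167886266-167890587), the activator of the complex, was at 27.1, 25.9 and 25.6 FPKM in WT at 0h, 15.4, 18.8 and 17.6 in WT at 60h, 45.4, 44.4 and 42.9 in CBP at 0h and 8.78, 8.04 and 8.41 in CBP at 60h. No groups overlapped, and CBP cells went from the highest level to the lowest. CDC20 fell 1.52-fold in WT, -0.58 (SE 0.06, limma adjusted p = 3.7e-06), and 5.26-fold in CBP, -2.27 (SE 0.06, limma adjusted p = 1.13e-11). ESPL1, or separase, the protease that cuts cohesin, fell 1.8-fold in WT (-0.69) and 3.63-fold in CBP (-1.55), and at 60h its arms overlapped, at 2.75 to 3.38 FPKM in WT and 2.54 to 2.94 in CBP.

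**Figure D2:**
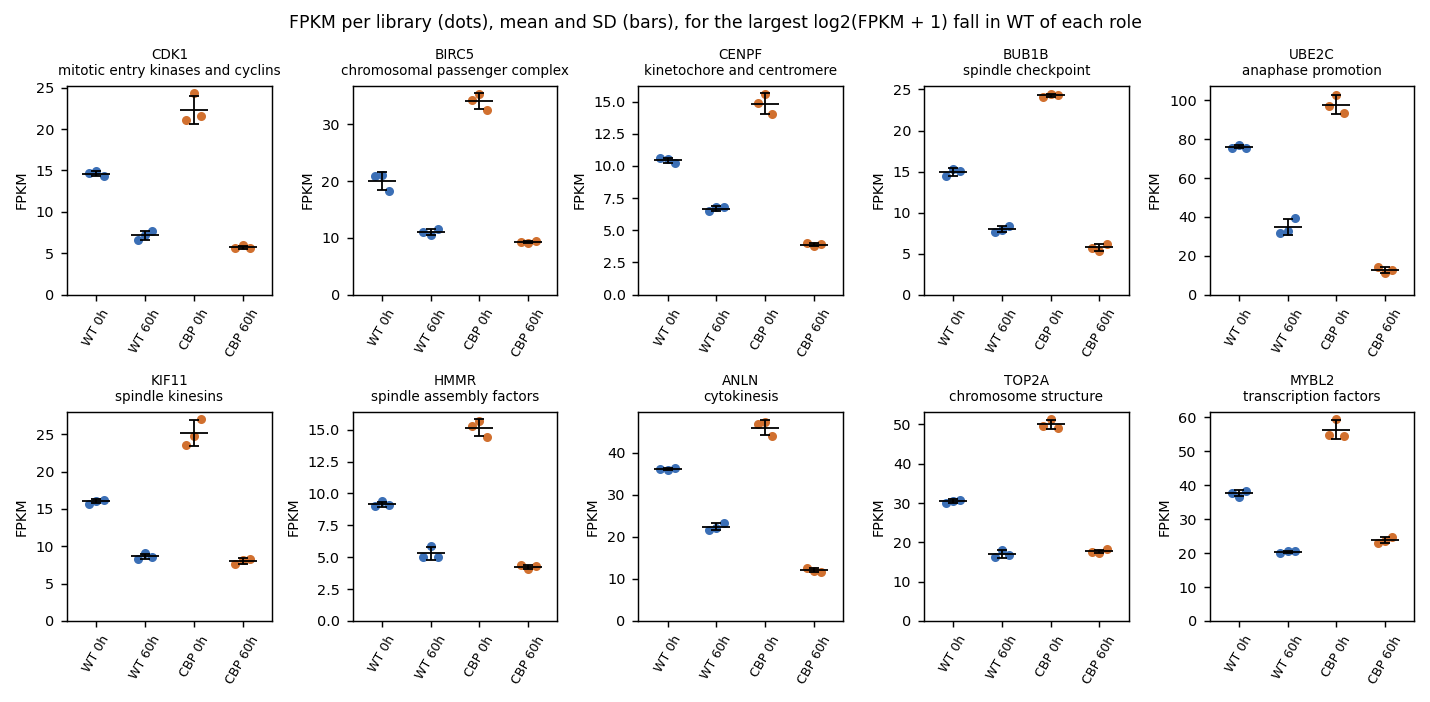
FPKM in each library (dots) with the mean and SD of each group (bars) for the gene with the largest fall in WT cells on the log2(FPKM + 1) scale in each of the 10 roles; each panel has its own vertical axis from 0. In every panel CBP cells at 0h are highest. UBE2C goes from 97.7 to 12.8 FPKM in CBP and from 76.2 to 34.8 in WT cells. At 60h the libraries of both arms overlap for KIF11 and for TOP2A, and those of MYBL2 are higher in CBP.

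All 8 spindle kinesins, the motors that build and elongate the spindle, fell in both arms, with medians of -0.58 in WT and -1.53 in CBP cells. KIF18A is among the 8, and its fall is in part a condition of its being tested. KIF11 (chr14:104125839-104177381), which pushes the spindle poles apart, was at 15.7, 16.1 and 16.2 FPKM in WT at 0h, 8.32, 9.05 and 8.6 in WT at 60h, 23.6, 24.7 and 27 in CBP at 0h and 7.6, 8.11 and 8.36 in CBP at 60h. The arms stood apart at 0h and overlapped at 60h, and the change was -0.81 (SE 0.0508, limma adjusted p = 3.65e-08) in WT and -1.53 (SE 0.0508, limma adjusted p = 8.03e-11) in CBP. KIF15 (chr13:27966586-28041121), which can stand in for KIF11, was at 3.76, 3.41 and 3.44 FPKM in WT at 0h, 2.61, 2.33 and 2.83 in WT at 60h, 5.88, 6.42 and 6.24 in CBP at 0h and 2.2, 2.23 and 2.46 in CBP at 60h. It showed the same picture at a lower level, with changes of -0.34 in WT and -1.12 in CBP.

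KIF20A (chr2:140202316-140213144), a motor of the central spindle, had the largest fall of the kinesins in CBP cells. Its libraries read 19.1, 19.7 and 19 FPKM in WT at 0h, 12.2, 12.2 and 14.2 in WT at 60h, 29.8, 33.1 and 29.9 in CBP at 0h and 5.52, 5.4 and 5.72 in CBP at 60h. No groups overlapped: it fell 1.49-fold in WT, -0.55 (SE 0.0574, limma adjusted p = 3.99e-06), and 5.58-fold in CBP, -2.28 (SE 0.0574, limma adjusted p = 7.19e-12). KIF23, the motor of the centralspindlin complex, kept 72% in WT and 25.6% in CBP cells. Its relative KIF20B kept 63.2% and 41.6%, and at 60h both arms lay between 4.35 and 4.83 FPKM. KIF2C, which takes microtubules apart at centromeres, kept 58.2% and 30.7%, and KIF4A, a motor that binds chromosome arms, 58.2% and 26.1%. KIF18A, which damps chromosome movement, was the lowest of the 44 genes, at 1.56 to 1.92 FPKM in WT and 2.15 to 2.4 in CBP cells at 0h and under 1 in all 6 libraries at 60h.

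The 4 spindle assembly factors fell in both arms, with medians of -0.59 in WT and -1.65 in CBP cells. HMMR (chr16:60290684-60332411), a microtubule-binding protein of the spindle poles, was at 9.01, 9.39 and 9.11 FPKM in WT at 0h, 5.03, 5.87 and 5 in WT at 60h, 15.3, 15.7 and 14.4 in CBP at 0h and 4.4, 4.1 and 4.28 in CBP at 60h. TPX2 (chr17:35431271-35484814), the activator of Aurora A, was at 27.9, 27.7 and 28.2 FPKM in WT at 0h, 17.7, 19.2 and 19 in WT at 60h, 41.1, 42.7 and 43.2 in CBP at 0h and 13, 11.5 and 13 in CBP at 60h. Neither gene's groups overlapped; HMMR changed by -0.69 (SE 0.055) in WT and -1.62 (SE 0.055) in CBP, and TPX2 by -0.56 (SE 0.0457) and -1.68 (SE 0.0457). DLGAP5 (chr1:184500791-184550028), which stabilises kinetochore fibres, was at 15.4, 15.7 and 15.6 FPKM in WT at 0h, 9.9, 10.1 and 9.94 in WT at 60h, 22.4, 26.5 and 22.3 in CBP at 0h and 5.13, 3.84 and 5.35 in CBP at 60h, a fall to 64.2% and 20.1%. CKAP2, another microtubule-binding protein, kept 64.3% in WT and 37.2% in CBP cells and reached a mean of 10.4 FPKM at 60h in both.

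The 3 tested cytokinesis genes fell in both arms, with medians of -0.67 in WT and -1.63 in CBP cells. ANLN (chr18:37647952-37710939), or anillin, the scaffold of the contractile ring, was at 36.2, 36 and 36.4 FPKM in WT at 0h, 21.7, 22.1 and 23.3 in WT at 60h, 46.8, 47.4 and 43.9 in CBP at 0h and 12.7, 11.9 and 11.7 in CBP at 60h. ECT2 (chr13:111248215-111310746), the exchange factor that turns on RhoA at the ring, was at 9.31, 9.91 and 9.7 FPKM in WT at 0h, 6.86, 7.82 and 7.27 in WT at 60h, 12.5, 13 and 12.3 in CBP at 0h and 4.38, 4.24 and 4.39 in CBP at 60h. All 4 groups stood apart for both genes. ANLN fell 1.62-fold in WT (-0.67) and 3.79-fold in CBP (-1.84), and ECT2 1.32-fold (-0.36) and 2.91-fold (-1.35). RACGAP1, the partner of KIF23 in centralspindlin, kept 61.6% in WT and 30.3% in CBP cells.

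The genes of chromosome structure fell in 4 of 5 cases in WT cells (median -0.65) and in 5 of 5 in CBP cells, where their median of -1.15 was the smallest of the 10 roles. TOP2A (chr12:22001300-22028452), the topoisomerase that untangles sister chromatids, was at 29.9, 30.5 and 30.9 FPKM in WT at 0h, 16.2, 18 and 16.9 in WT at 60h, 49.5, 51.4 and 49.2 in CBP at 0h and 17.6, 17.3 and 18.2 in CBP at 60h. The arms were apart at 0h and overlapped at 60h, and it changed by -0.80 (SE 0.0381, limma adjusted p = 3.18e-09) in WT and -1.45 (SE 0.0381, limma adjusted p = 1.06e-11) in CBP. SMC2 (chr1:245409559-245459032), a core ATPase of both condensin complexes, was at 10.4, 9.72 and 9.83 FPKM in WT at 0h, 9.11, 10.1 and 9.15 in WT at 60h, 16, 16.7 and 15.7 in CBP at 0h and 9.25, 9.09 and 9.31 in CBP at 60h. Its 0h and 60h libraries overlapped in WT, where the change of -0.07 (SE 0.0442, limma adjusted p = 0.185) was not called, while it changed by -0.74 (SE 0.0442, limma adjusted p = 1.51e-08) in CBP. SMC2 was called in WT without WT_60h replicate 2 (-0.12, limma adjusted p = 0.0298).

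NCAPH (chr3:46852388-46893008), the subunit that closes the condensin I ring, had the highest value of the 44 genes for CBP against WT cells at 60h. It was at 8.28, 8.54 and 9.53 FPKM in WT at 0h, 4.58, 5.43 and 5.32 in WT at 60h, 13.3, 14.2 and 14 in CBP at 0h and 6.59, 6.11 and 7 in CBP at 60h. The CBP libraries lay above the WT libraries at both times, with a difference of 0.31 (SE 0.0671, limma adjusted p = 0.0013) at 60h. SMC4, the partner of SMC2, kept 73.4% in WT and 41.7% in CBP cells, and NCAPG, another condensin I subunit, 56.1% and 37.7%.

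Both transcription factors fell in both arms. MYBL2 (chr17:46256245-46287929), which codes for B-MYB, was at 37.8, 36.6 and 38.4 FPKM in WT at 0h, 20, 20.5 and 20.7 in WT at 60h, 54.9, 59.6 and 54.6 in CBP at 0h and 23.1, 23.5 and 24.8 in CBP at 60h. CBP was above WT at both times without overlap. MYBL2 changed by -0.85 (SE 0.0386, limma adjusted p = 2.06e-09) in WT and -1.21 (SE 0.0386, limma adjusted p = 5.55e-11) in CBP. FOXM1 (chr5:67246219-67263215) was at 2.38, 2.92 and 2.41 FPKM in WT at 0h, 1.28, 1.26 and 1.48 in WT at 60h, 4.71, 4.2 and 4.41 in CBP at 0h and 1.48, 1.35 and 1.61 in CBP at 60h, and its arms overlapped at 60h. It changed by -0.60 in WT and -1.13 in CBP. The fall from 0h to 60h in CBP cells was thus shallower for both factors than the median of the 44 genes.

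**Figure D3:**
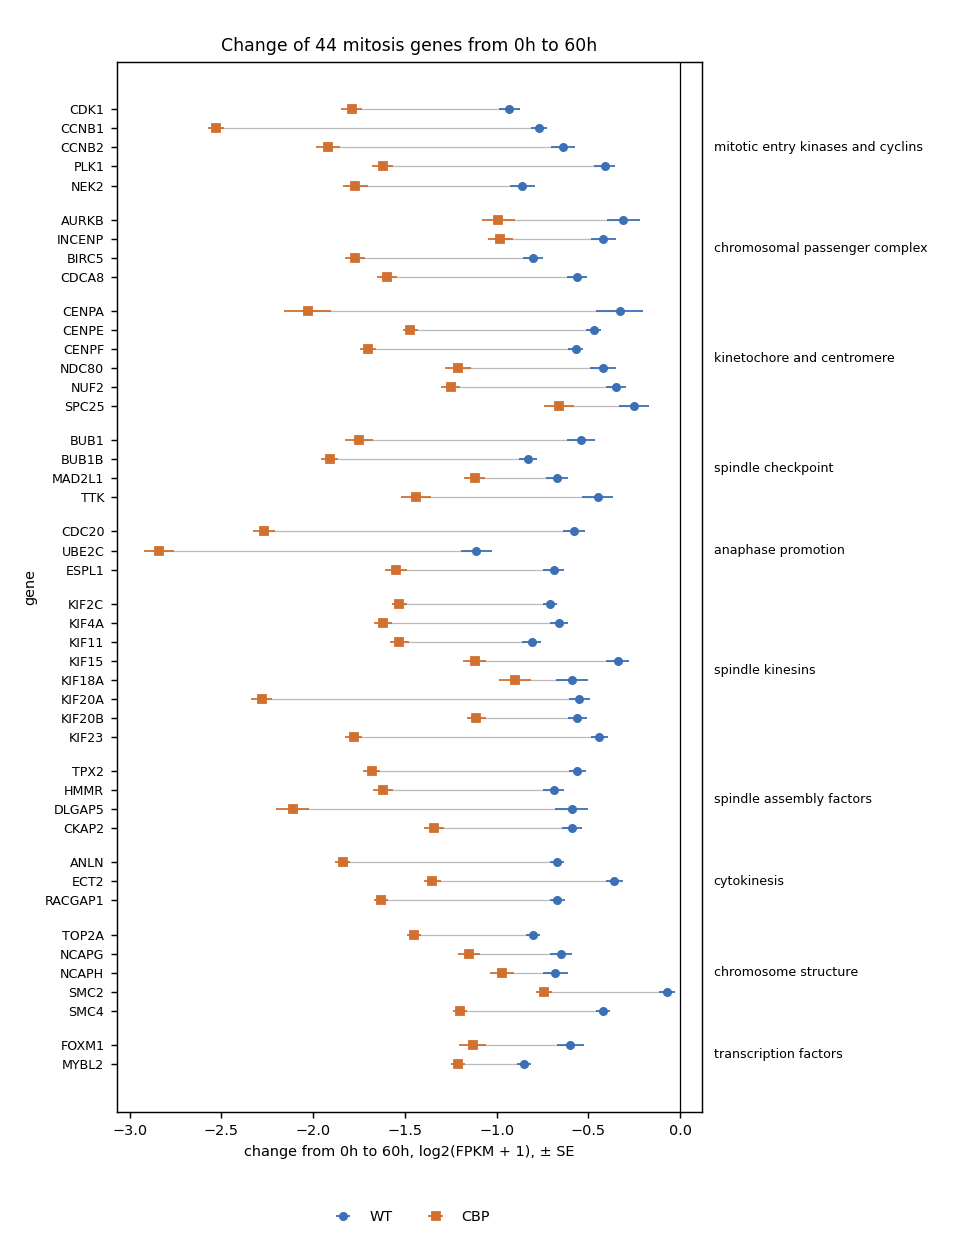
Change from 0h to 60h of each tested gene, as the difference of log2(FPKM + 1) with its SE, in WT cells and in CBP cells, with genes in rows grouped by role. All points in CBP cells lie to the left of those in WT cells, and the gap is widest for CCNB1, KIF20A, UBE2C, CENPA and CDC20.

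The 4 roles of spindle and chromosome segregation can be set side by side. In WT cells the median level left at 60h was 73.1% for kinetochore genes (64.1% to 78.6%), 63.3% for checkpoint genes (53.3% to 68.7%), 60.7% for kinesins (46.9% to 73.2%) and 55.4% for the genes that start anaphase (45.7% to 66%). In CBP cells it was 32.7% for kinetochore genes (17.5% to 56.3%), 31.3% for kinesins (17.9% to 41.6%), 27.8% for checkpoint genes (23.7% to 44.3%) and 19% for the genes that start anaphase (13.1% to 27.6%). The kinesin with the least left in WT cells, 46.9%, was KIF18A, whose fall is in part a condition of its being tested. The kinesin medians include it. The anaphase genes were last and the kinetochore genes first in both arms, but the ranges overlap between roles, the anaphase group holds 3 genes, and differences between roles were not tested. In WT cells the order of checkpoint genes and kinesins depends on the scale. Their median changes in log2(FPKM + 1) were -0.61 and -0.58. Over the 44 genes, the changes in the 2 arms, which share no libraries, had a Pearson r of 0.52 and a Spearman rho of 0.38. The change in CBP cells had an r of -0.58 (rho -0.48) with the log2 level in WT cells at 0h and an r of 0.46 (rho 0.38) with gene length, so that higher and shorter genes fell more on a scale that understates the change of low genes. Genes are not independent replicates, and these values are descriptions. The 46 genes with a row lie on 18 chromosomes, with at most 6 on 1 (chromosome 1).

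The fall was deeper in CBP than in WT cells for 43 of 44 genes, by the interaction term of the same limma fit, with a median of -0.92 against -0.01 for all tested genes. Over all tested genes the interaction was called lower for 26.7% and higher for 24.3%. On this scale the largest values were for CCNB1 (-1.76 (SE 0.0622, limma adjusted p = 1.03e-09)), KIF20A (-1.74 (SE 0.0812, limma adjusted p = 1.11e-08)) and UBE2C (-1.73 (SE 0.119, limma adjusted p = 2.62e-07)), and 15 genes reached -1 or less. The smallest called values on it were for NCAPH (-0.29 (SE 0.0949, limma adjusted p = 0.0224)), MYBL2 (-0.36 (SE 0.0545, limma adjusted p = 0.000183)) and SPC25 (-0.41 (SE 0.116, limma adjusted p = 0.011)). The call for NCAPH was lost under TPM scaling and without any 1 of 5 libraries, at limma adjusted p of 0.0501 (without WT_0h replicate 2) to 0.0574 (TPM scaling). KIF18A was the exception, at -0.31 (SE 0.123, limma adjusted p = 0.0561), and it was called without WT_0h replicate 3, WT_60h replicate 1 or CBP_60h replicate 1, with no trend, and with voom on recovered reads, at limma adjusted p of 0.0255 to 0.0445. By construction, this term is the difference between the arms at 60h minus that at 0h, and the 2 parts differed in weight between genes: for UBE2C they were -1.37 and 0.35, and for MYBL2 0.21 and 0.57.

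At 0h all 44 genes were higher in CBP than in WT cells, with a median of 0.59 against 0.12 for all tested genes and a range of 0.26 to 0.96. Among all tested genes 44.2% were called higher and 18.1% lower. The CBP libraries lay above the WT libraries without overlap for all 44, and for 47.2% of all tested genes; 19.6% lay below without overlap. CENPA had the largest difference, 2.13-fold (0.96 (SE 0.128, limma adjusted p = 4.6e-05)), followed on this scale by AURKB at 1.88-fold (0.81) and INCENP at 1.82-fold (0.77). The smallest differences were for KIF18A (0.26 (SE 0.0868, limma adjusted p = 0.0202)), ANLN (0.34), UBE2C (0.35) and ECT2 (0.35). By role the medians ran from 0.35 for cytokinesis to 0.76 for the chromosomal passenger complex. The share of higher calls over all tested genes, 71%, depends on the scaling: with median-of-ratios scaling it was 48.6%, the median of all genes moved from 0.12 to 0.00, and the mitosis genes kept 43 higher and none lower, with a median of 0.45. The gene lost was KIF18A (0.17, limma adjusted p = 0.132), whose call was also lost without WT_0h replicate 2 (limma adjusted p = 0.0794) or CBP_0h replicate 1 (limma adjusted p = 0.0657). A pseudocount of 0.1, quantile scaling and TPM scaling ended it too, at limma adjusted p of 0.0594 to 0.0647.

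At 60h the genes divided. Of the 44, 28 were lower in CBP than in WT cells, 4 were higher and 12 were not called, with a median of -0.34 against 0.10 for all tested genes. Among all tested genes 27.0% were called lower and 44.7% higher. The entry kinases and cyclins were lower in 5 of 5 cases, the cytokinesis genes in 3 of 3, the kinetochore genes in 5 of 6, the checkpoint genes in 3 of 4, the spindle assembly factors in 3 of 4, the anaphase genes in 2 of 3, the kinesins in 4 of 8 and the passenger genes in 2 of 4. Of the chromosome structure genes 1 of 5 was lower, SMC4 (-0.21), and of the transcription factors neither. The largest differences were for UBE2C (-1.37 (SE 0.0841, limma adjusted p = 2.64e-08)), KIF20A (-1.08 (SE 0.0574, limma adjusted p = 7.36e-09)) and CCNB1 (-1.03 (SE 0.044, limma adjusted p = 1.05e-09)). These genes were 2.72-fold, 2.32-fold and 2.15-fold lower in CBP cells.

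The 4 genes higher in CBP cells at 60h were NCAPH (1.28-fold), SPC25 (1.25-fold), INCENP (1.2-fold) and MYBL2 (1.17-fold, 0.21 (SE 0.0386, limma adjusted p = 0.000326)). Under median-of-ratios scaling only NCAPH was still called higher, and 32 genes were called lower, since ESPL1, KIF11, KIF15 and SMC2 joined them. That scaling moves the median of all genes from 0.10 to -0.00 and the share of higher calls over all tested genes from 62.4% to 48.4%. The 12 genes not called were AURKB, MAD2L1, ESPL1, KIF11, KIF15, KIF18A, KIF20B, CKAP2, TOP2A, NCAPG, SMC2 and FOXM1. Their values lay between -0.14 for ESPL1 and 0.13 for AURKB, and the libraries of the 2 arms overlapped for all 12. Leaving out 1 library brought 5 of them past the threshold: AURKB (0.22, without WT_60h replicate 1), MAD2L1 (0.17, without CBP_60h replicate 2), TOP2A (0.09, without WT_60h replicate 2), KIF15 (-0.17, without WT_60h replicate 2) and ESPL1 (-0.20 without WT_60h replicate 1 and -0.18 without CBP_60h replicate 3). ESPL1 was closest to the threshold (-0.14 (SE 0.0596, limma adjusted p = 0.0517)) and was called lower under most other settings as well: with the replicate block (limma adjusted p = 0.0468), a pseudocount of 0.1, no trend, voom on recovered reads, and median-of-ratios, quantile and TPM scaling, at limma adjusted p of 0.00383 to 0.0468. Quantile scaling also brought KIF11, KIF15 and SMC2 to a lower call, at limma adjusted p of 0.00863 to 0.0411.

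**Figure D4:**
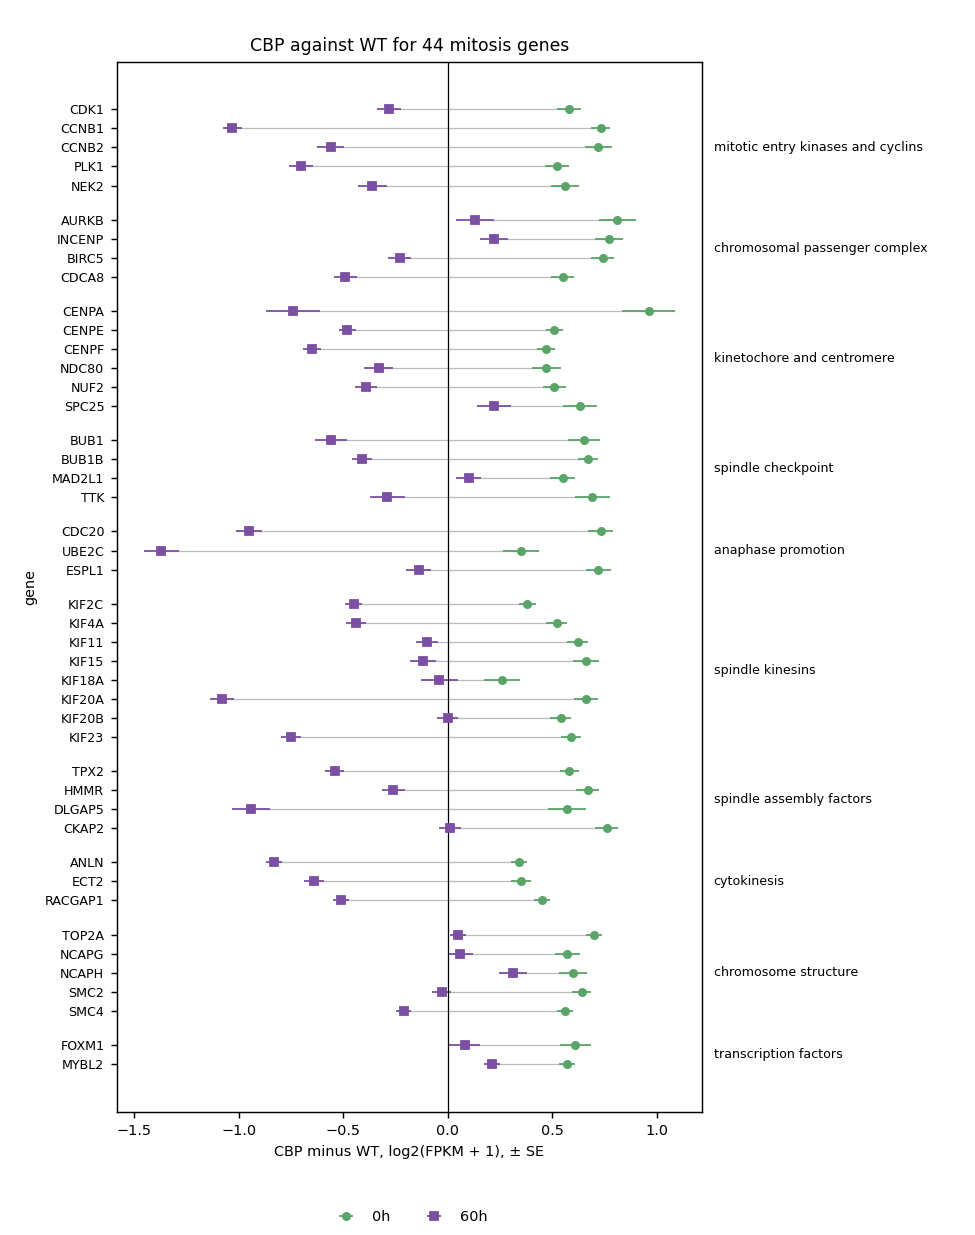
Difference between CBP and WT cells for each tested gene at 0h and at 60h, as log2(FPKM + 1) with its SE, with genes in rows grouped by role. All 44 points at 0h lie above 0, from 0.26 to 0.96, and the points at 60h run from -1.37 for UBE2C to 0.31 for NCAPH.

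Other genes of the same processes were read from lists of textbook members. For comparison, 38.0% of all tested genes fell and 28.8% rose in WT cells, and 41.5% fell and 31.3% rose in CBP cells. Of 24 other kinetochore and centromere genes tested, 18 fell and 1 rose in WT cells (median -0.28), and 20 fell and 1 rose in CBP cells (median -0.56). SPC24, the partner of SPC25, fell most of the list in both arms, at -1.29 (SE 0.0674) in WT and -2.17 (SE 0.0674) in CBP. At 60h it was lower in CBP than in WT cells (-0.63, SE 0.0674), and SPC25 was higher. CENPM, a subunit of the inner kinetochore, was higher in CBP at 60h (0.73, SE 0.075). Of 9 other checkpoint and cohesion guard genes, 5 fell and 2 rose in WT and 6 fell and 2 rose in CBP cells. SGO2, a shugoshin that protects centromeric cohesin, changed by -0.55 in WT and -1.64 in CBP. MAD1L1, the anchor of MAD2 at kinetochores, was higher in CBP cells at 0h (0.51) and at 60h (0.69).

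The other genes of the anaphase-promoting complex and its partners had smaller median changes than UBE2C, CDC20 and ESPL1. Of 16 tested, 10 fell and 2 rose in WT cells (median -0.22) and 12 fell and 1 rose in CBP cells (median -0.28). The fall was deeper in CBP for 4 of the 16, a share near the 26.7% of all tested genes. At 60h 10 of the 16 were higher in CBP than in WT cells and 2 lower, against 44.7% and 27.0% of all tested genes. The higher genes included the subunits ANAPC15 (0.64) and ANAPC16 (0.47) and the inhibitor FBXO5 (0.39). Of 6 other mitotic kinesins, 5 fell in WT and 6 in CBP cells. KIF22, a chromosome-binding kinesin, changed by -0.73 in WT and -1.56 in CBP, and KIF2A went against the rest at 0h, where it was lower in CBP cells (-0.67). All 12 other spindle and cytokinesis genes fell in WT (median -0.41), and 11 fell and 1 rose in CBP cells (median -1.29). ASPM, a protein of the spindle poles, changed by -1.76 in CBP and was lower there than in WT cells at 60h (-0.74).

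The other condensin and cohesin genes were higher in CBP cells at 60h in 9 of 9 cases (median 0.27). Among all tested genes 44.7% were higher, and the median of all was 0.10. SMC3 was at 0.46 and STAG2 at 0.32. Of the 9, 7 fell and 1 rose in WT cells and 6 fell and 2 rose in CBP cells; NCAPG2, a condensin II subunit, changed by -0.60 and -0.90. All 10 other genes of mitotic entry control fell in WT (median -0.47), and 9 fell and 1 rose in CBP cells. CCNF changed by -1.59 in CBP cells with an interaction of -1.27, and CDC25B went the other way, with an interaction of 0.84. Of 18 regulators of the MuvB, DREAM and E2F family, 9 fell and 4 rose in WT and 12 fell and 3 rose in CBP cells. Over all tested genes 38.0% fell and 28.8% rose in WT, and 41.5% fell and 31.3% rose in CBP cells. E2F1 was higher in CBP cells at 0h (0.84) and at 60h (1.16), and so was NFYA, a subunit of the CCAAT-binding factor (0.69 and 1.15).

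DNA replication genes served for comparison, since they are also genes of dividing cells but act in S phase. Of 33 tested, 31 were higher in CBP cells at 0h (median 0.70), as all 44 mitosis genes and 44.2% of all tested genes were. At 60h 29 of the 33 were still higher in CBP cells and 2 lower (median 0.49), where the mitosis genes had 4 higher and 28 lower (median -0.34). Among all tested genes 44.7% were higher and 27.0% lower at 60h. From 0h to 60h 21 fell in WT (median -0.22) and 28 in CBP cells (median -0.32), and the fall was deeper in CBP for 9 of 33, a share near the 26.7% of all tested genes. PCNA, the sliding clamp of DNA polymerase, was higher in CBP cells at 60h by 0.89 (SE 0.0416) and MCM3, a subunit of the replicative helicase, by 0.95 (SE 0.0511). TYMS, the thymidylate synthase, had the largest fall of the list, at -1.27 in WT and -2.12 in CBP cells. The difference between the 2 lists was not tested.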

How the data were processed

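RNA was sequenced from porcine muscle satellite cells in 12 libraries, 3 in each of 4 groups. Per the submitters' processing notes, Trimmomatic (trimming), featureCounts (counting) and the build Sscrofa11.1 were used. No source used here names the aligner, the annotation release, the tool versions or the strand setting, so overlapping and antisense genes may share reads. The FPKM values come from a single table that the authors deposited, with 1 column per library; columns named NC were read as the WT libraries, since the other arm and both times match by name.

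Since featureCounts counts reads, FPKM moves in steps of 1 read. All 22521 genes above 0 gave whole reads (tolerance 0.001), which served for depth and for 1 alternative. Genes with FPKM of 1 or more in at least 3 libraries (11636) were tested on log2(FPKM + 1), with a pseudocount of 1, by limma 3.58.1 in R 4.3.3: 1 mean per group, fitted to all libraries, with trended empirical Bayes, two-sided contrasts, and Benjamini-Hochberg adjustment over all tested genes with a threshold of 0.05. The scripts were tested on simulated data. Symbols came from the table (16801 genes) or, by identifier, from the pig reference (676).

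The mitosis genes, the other lists and the tests were chosen with earlier results of these data known. Per-library values are given for the genes with the largest and smallest WT change in each role and for those whose direction differed from their role; the genes with the 6 largest falls in CBP cells were added after their values were seen. From each other list at most 4 called genes with the largest change per comparison are named. Replicate numbers did not pair the libraries. Promoter and protein sequences were not used here.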

Additional observations from a re-analysis of the deposited data

Results flagged for a closer look

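The difference between the arms in the change from 0h to 60h passed the test for 43 genes, by the interaction term of the limma fit (Benjamini-Hochberg adjusted p under 0.05), against 26.7% of all tested genes called in that direction. A negative value is a deeper fall in CBP than in WT cells, on the log2(FPKM + 1) scale. Among the entry genes the values were -0.86 for CDK1, -1.76 for CCNB1, -1.28 for CCNB2, -1.22 for PLK1 and -0.91 for NEK2. In the chromosomal passenger complex they were -0.68 for AURKB, -0.56 for INCENP, -0.97 for BIRC5 and -1.04 for CDCA8. Kinetochore and centromere genes gave -1.70 for CENPA, -0.99 for CENPE, -1.13 for CENPF, -0.80 for NDC80, -0.89 for NUF2 and -0.41 for SPC25. Checkpoint genes gave -1.21 for BUB1, -1.07 for BUB1B, -0.45 for MAD2L1 and -0.98 for TTK, and the genes that start anaphase -1.69 for CDC20, -1.73 for UBE2C and -0.86 for ESPL1.

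For the kinesins the values were -0.82 for KIF2C, -0.96 for KIF4A, -0.72 for KIF11, -0.78 for KIF15, -1.74 for KIF20A, -0.54 for KIF20B and -1.34 for KIF23. Spindle assembly factors gave -1.12 for TPX2, -0.92 for HMMR, -1.51 for DLGAP5 and -0.75 for CKAP2, and cytokinesis genes -1.17 for ANLN, -0.99 for ECT2 and -0.97 for RACGAP1. Chromosome structure genes gave -0.65 for TOP2A, -0.50 for NCAPG, -0.29 for NCAPH, -0.67 for SMC2 and -0.78 for SMC4. The transcription factors were at -0.53 for FOXM1 and -0.36 for MYBL2.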

How the results depend on the processing

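The 5 counts of mitosis genes in the direction most of them took (higher at 0h in CBP, lower at 60h in CBP, lower at 60h in each arm, deeper fall in CBP) stayed within 1.5 times of the reported ones under every alternative run. The count higher in CBP at 60h, 4, did not: it was 1 with median-of-ratios scaling and 3 to 5 under the others. Leaving out 1 library at a time gave 43 to 44 genes higher in CBP at 0h, 28 to 29 lower at 60h, 41 to 43 lower at 60h than at 0h in WT, 44 in CBP and 42 to 44 with a deeper fall. With the replicate block the counts were 44, 29, 43, 44 and 43; same-numbered libraries correlated at -0.0935 to 0.082, so the numbers were not taken as pairs. Over all members and alternatives, 4514 single results kept their side of the threshold, 36 lost it and 25 gained it, and none of these results changed direction while called. Role medians moved by more than the spread between replicates in these cases. With a pseudocount of 0.1 they were -0.71 for kinesins in WT and, in CBP, -1.66 for kinesins, -1.58 for kinetochore, -1.83 for checkpoint and -2.38 for anaphase genes. On recovered reads with voom they were -0.72 and -0.86 for kinesins and anaphase genes in WT, and -1.67, -1.62, -1.86 and -2.39 in CBP, in the same order of roles. With median-of-ratios scaling they were -0.54 for kinesins in WT and -1.46, -1.52 and -2.19 for kinesins, checkpoint and anaphase genes in CBP; kinesins in CBP were at -1.49 with quantile and -1.51 with TPM scaling. Leaving out 1 library gave -0.63 to -0.55 for kinesins in WT and -1.57 to -1.49 in CBP. TPM scaling moved the share of higher calls over all genes from 43.1% to 53.3% in WT and from 43% to 54.6% in CBP for the change from 0h to 60h, where 41 and 44 mitosis genes were lower. The cause of these shifts was not tested. Low genes limit the precision: the lowest reading behind a tested gene was 54 reads (CENPA).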
